A study of Mus musculus with 10 samples.

Results

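TRAJ58, TRAJ49 and TRAJ48 are 3 joining (J) gene segments of the mouse T cell receptor (TCR) alpha locus. Their chains were picked out of TCR sequencing of regulatory T (Treg) cells by the last residues of the CDR3, the loop that spans the V to J junction: KLSF for TRAJ58, NFYF for TRAJ49 and EKITF for TRAJ48. Together they made up 13948 of the 189965 alpha chain (TRA) entries in the tables, or 7.34%, and 31047 of the 481682 TRA counts, or 6.45%. TRAJ58 held 1301 entries, TRAJ49 held 7486 and TRAJ48 held 5161.

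Alpha chains are built by joining 1 V segment to 1 J segment, and the same allele can rearrange again, replacing the first join with a V further out and a J further in. Early rounds therefore tend to use J segments at the V side of the J array together with V segments close to it, and later rounds move outward on both sides. CDR3 sequences that need few added bases are made often and tend to recur in different animals.

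The libraries came from splenic Treg cells, used directly after isolation and with no treatment. The 5 CNS4KO samples were labelled KO and came from mice deficient for CNS4, an enhancer of Foxp3, the gene that defines Treg cells. The 5 CNS4Flox samples were labelled WT and came from mice in which CNS4 is floxed, that is, flanked by recombination sites. The Cre line, the age of the mice, and whether each library was 1 mouse are not stated in the labels, so p-values measure the spread between these libraries, which may be technical in part. The replicate numbers 1 to 5 were given here in the order of the samples and only name libraries. Foxp3 itself was not measured, and neither the deletion nor the Treg identity could be checked from these files.

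Each library held 61793 to 95853 counts over both chains, and 40063 to 68133 of them were TRA. Libraries of the same group differed in all 20 pairs by chi-square test (largest p = 2.56e-15). That test takes each count as an independent draw, which counts of the same clone may not be. CNS4KO replicate 5 and CNS4Flox replicate 3 stood apart as a pair: for TRAJ58, TRAJ49 and TRAJ48 together 332 nucleotide clonotypes were common to both, and the 44 remaining pairs of libraries had 115 to 260 in common. The invariant NKT alpha chain, a marker of another T cell type, held 0.201% ± 0.0411 of TRA counts in CNS4KO libraries and 0.148% ± 0.0496 in CNS4Flox libraries (SD, n = 5 each). The chain of MAIT cells could not be checked, since TRAJ33, the J segment it uses, was not among the 34 TRAJ genes in the tables.

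Each of these J segments leaves its own end in the CDR3. The most frequent base at each position, counted over all distinct sequences of the gene from the 3′ end for as long as 1 base held at least 50%, gave the ends below. They are shown because the trimming values and the bases outside the J end are measured against them. Capitals mark the codons of the residues that chose the chains.
TRAJ58: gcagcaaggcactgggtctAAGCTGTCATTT
TRAJ49: acacgggttaccagAACTTCTATTTT
TRAJ48: aactatggaaatGAGAAAATAACTTTT

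The ends ran over 31 bases for TRAJ58, 26 for TRAJ49 and 27 for TRAJ48. Clonotypes of TRAJ58 lacked 2.68 ± 0.215 bases of the end in CNS4KO libraries and 2.84 ± 0.245 in CNS4Flox libraries, the most of the 3: 28.3 ± 0.215 bases of its end were kept in CNS4KO clonotypes and 28.2 ± 0.245 in CNS4Flox clonotypes. TRAJ49 kept 24.8 ± 0.0443 bases in CNS4KO libraries and 24.8 ± 0.0905 in CNS4Flox libraries, and TRAJ48 kept 25.3 ± 0.113 and 25.3 ± 0.134 (SD, n = 5 each). The whole TRAJ58 end stood in 37.3% ± 3.16 of its CNS4KO clonotypes and in 36.5% ± 5.04 of its CNS4Flox clonotypes, and the groups overlapped for all 3 genes. A germline J sequence was not used here, so trimming is measured against these consensus ends. Where each end stops itself depends on how far the gene is trimmed. The order of the 3 genes therefore holds against these ends only.

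All 3 genes are annotated as J segments on chromosome 14 by RefSeq (GRCm38, which is mm10). Traj58 lies at chr14:54157280-54157342, Traj49 at chr14:54168686-54168744 and Traj48 at chr14:54169808-54169868. Counted from the V side, Traj58 is segment 4, Traj49 segment 13 and Traj48 segment 14 of the 60 annotated Traj segments. Of the 31 TRAJ genes with enough counts to test (at least 10 counts in at least 5 libraries), TRAJ58 was the one nearest the V genes.

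The tables listed these alpha chains under beta chain gene names, all 1301 TRAJ58 entries as TRBJ2-2, 99.97% of TRAJ49 entries as TRBJ1-3 and 99.94% of TRAJ48 entries as TRBJ2-3. The alpha chains measured are therefore those that passed as beta chains, and how many were missed can differ between J segments and between V segments. Levels set between TRAJ genes carry this limit. Comparisons of 1 gene between groups use the same selection on both sides.

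As a share of the alpha chain repertoire, none of the 3 genes passed the test between the groups. TRAJ58 was rare, TRAJ49 and TRAJ48 of middle rank: by mean share of TRA counts they stood 30th, 15th and 19th of 31. TRAJ58 held 0.376%, 0.420%, 0.454%, 0.559% and 0.463% of TRA counts in CNS4KO replicates 1 to 5, against 0.565%, 0.545%, 0.537%, 0.580% and 0.664% in CNS4Flox replicates 1 to 5. Of the CNS4KO libraries, only replicate 4 reached the CNS4Flox range. The means were 0.454% ± 0.0678 in CNS4KO and 0.578% ± 0.0507 in CNS4Flox libraries (SD, n = 5 each). In edgeR's quasi-likelihood test the log2 fold change, CNS4KO over CNS4Flox, was -0.35 ± 0.16 (SE), with an unadjusted p of 0.0361 and a Benjamini-Hochberg adjusted p of 0.560. Over all TRAJ genes 0 of 31 (0%) passed an adjusted p of 0.05 in edgeR, 2 had an unadjusted p under 0.05, and DESeq2 called 0 as well. At 210 to 332 counts a library, counting error alone is wide: the 95% Wilson interval of CNS4KO replicate 1 ran over 0.333% to 0.425%, and these intervals cover counting error only.

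TRAJ49 held 3.23%, 4.54%, 3.46%, 3.63% and 3.21% of TRA counts in CNS4KO replicates 1 to 5, against 3.78%, 4.02%, 3.48%, 3.53% and 3.19% in CNS4Flox replicates 1 to 5. CNS4KO replicate 2 was the highest library, and the other 4 CNS4KO libraries lay within the CNS4Flox range. The log2 fold change was 0.00 ± 0.12 (edgeR, adjusted p = 0.9998). TRAJ48 held 2.40%, 2.61%, 2.03%, 2.88% and 2.21% in CNS4KO libraries, against 2.22%, 2.21%, 2.54%, 2.32% and 2.19% in CNS4Flox libraries. CNS4KO libraries gave both its highest and its lowest value. Its log2 fold change was 0.08 ± 0.13 (edgeR, adjusted p = 0.865).

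**Figure D1:**
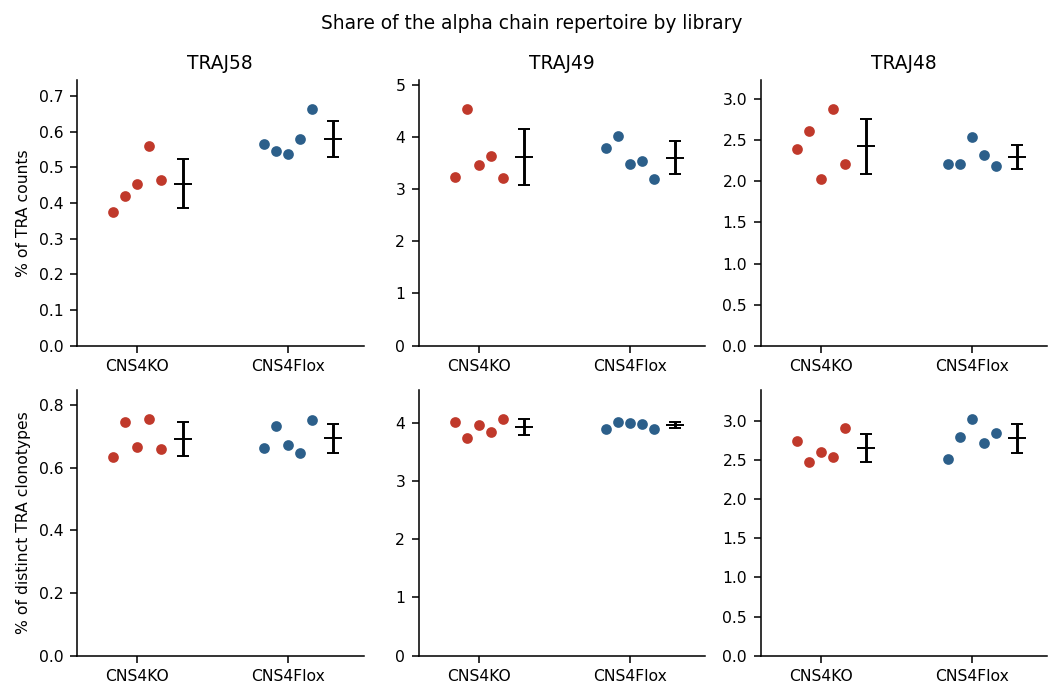
Share of TRA counts (upper row, percent) and of distinct TRA clonotypes (lower row, percent) for TRAJ58, TRAJ49 and TRAJ48; each point is 1 library, and the bars give the mean and SD of 5. For TRAJ58 the CNS4KO points lie mostly below the CNS4Flox points by counts (0.454% against 0.578% on average) but not by distinct clonotypes (0.692% against 0.693%).

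Counted once each, the clonotypes of the 3 genes took nearly equal parts of both repertoires. A clonotype here is 1 CDR3 nucleotide sequence with 1 J end. TRAJ58 made up 0.692% ± 0.0549 of distinct TRA clonotypes in CNS4KO libraries and 0.693% ± 0.0458 in CNS4Flox libraries. TRAJ49 made up 3.92% ± 0.137 in CNS4KO and 3.96% ± 0.0523 in CNS4Flox, and TRAJ48 made up 2.66% ± 0.175 and 2.78% ± 0.186 (SD, n = 5 each). The groups overlapped for all 3, with log2 fold changes of -0.01, -0.01 and -0.06 and edgeR adjusted p-values of 0.953, 0.939 and 0.814. Of the 31 TRAJ genes 1 (3.23%) passed the threshold, and it was none of these.

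Set side by side with the rest of the J array, the shares of the V side genes gave no called change. Of the 10 tested genes from TRAJ61 to TRAJ45, which include all 3, none passed the threshold by counts (edgeR), 1 had an unadjusted p under 0.05, and the median log2 fold change was -0.11, with 3 above 0 and 7 below. The 10 genes from TRAJ44 to TRAJ23 had a median of 0.03 and the 11 from TRAJ22 to TRAJ1 a median of -0.01, against -0.01 over all 31.

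The TRAJ gene whose log2 share of TRA counts moved most like that of TRAJ58 over the 10 libraries was TRAJ21 (Pearson r = 0.79), then TRAJ43 (0.65) and TRAJ34 (0.55). TRAJ49 was most like TRAJ18 (0.65), TRAJ11 (0.65) and TRAJ37 (0.63), and TRAJ48 most like TRAJ12 (0.91), TRAJ56 (0.52) and TRAJ15 (0.34). These are descriptions over libraries in which all shares add up to the same total. Among the 3 genes themselves r was -0.11 for TRAJ58 with TRAJ49, -0.07 for TRAJ58 with TRAJ48 and 0.31 for TRAJ49 with TRAJ48.

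The 3 genes differed in CDR3 length. TRAJ58 clonotypes averaged 14.37 ± 0.12 residues, against 13.58 ± 0.01 for all other TRA clonotypes of the same libraries (SD, n = 10), and were longer in 10 of 10. The exact two-sided sign-flip test over libraries gave an adjusted p of 0.00555 over the 108 comparisons made, from the smallest p that 10 libraries allow, 0.00195. Such differences were the rule: 93.5% of the 31 TRAJ genes differed in length from the rest, 54.8% being longer. TRAJ49 clonotypes averaged 13.42 ± 0.04 residues, against 13.59 ± 0.01, and were shorter in 10 of 10 libraries (adjusted p = 0.00555, exact sign-flip test). TRAJ48 clonotypes averaged 13.55 ± 0.05, against 13.58 ± 0.01, and the difference did not pass (adjusted p = 0.0980, exact sign-flip test).

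Over the length classes, 14 residues was the most frequent for TRAJ58, with 36.4% ± 5.22 of its clonotypes, followed by 15 residues with 20.2% ± 4.14 and 16 residues with 14.6% ± 2.39. For TRAJ49, 13 residues held 32.2% ± 1.37 and 14 residues 32.2% ± 1.38, with 2.10% ± 0.509 at 16 residues. TRAJ48 peaked at 13 residues, with 34.1% ± 1.55, and had 2.55% ± 0.491 at 16 (SD, n = 10). The other TRAJ genes together had 29.6% ± 0.441 at 14 residues and 5.88% ± 0.237 at 16.

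**Figure D2:**
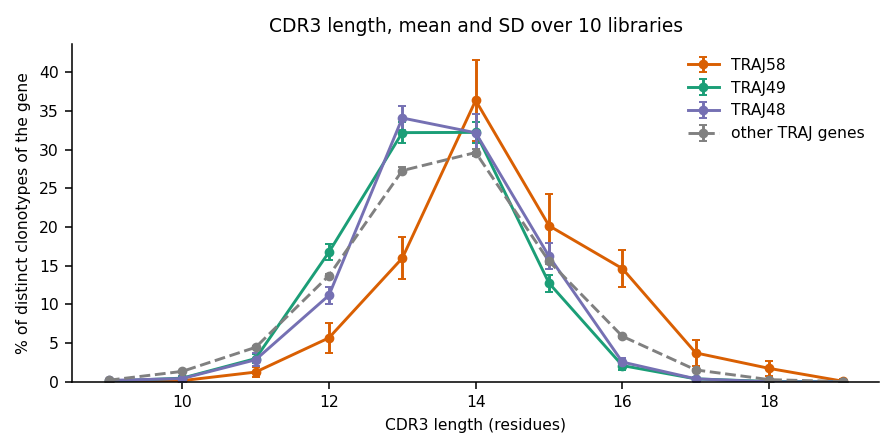
CDR3 length (x axis, residues) against the percent of distinct clonotypes of each gene (y axis), mean and SD over 10 libraries, with the other TRAJ genes as a dashed line. The TRAJ58 curve lies to the right: 14.6% of its clonotypes had 16 residues, against 2.10% for TRAJ49 and 2.55% for TRAJ48.

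Length passed the test between the groups for none of the 3 genes. TRAJ58 averaged 14.32, 14.56, 14.55, 14.30 and 14.42 residues in CNS4KO replicates 1 to 5, against 14.19, 14.35, 14.34, 14.29 and 14.38 in CNS4Flox replicates 1 to 5. Although 3 CNS4KO libraries lay above every CNS4Flox library, the other two were inside the CNS4Flox range. The difference was 0.12 ± 0.05 residues (SE), with an adjusted p of 0.473 in limma's test across the 31 TRAJ genes. In limma 0 of 31 (0%) passed, 1 had an unadjusted p under 0.05, and the exact permutation test called 0. TRAJ49 averaged 13.43 ± 0.03 residues in CNS4KO and 13.40 ± 0.04 in CNS4Flox libraries, and TRAJ48 13.55 ± 0.05 and 13.55 ± 0.06 (SD, n = 5 each).

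The first 4 residues of the CDR3 mostly come from the V segment. Of the 30 starts that made up at least 0.5% of TRA clonotypes, 4 were more frequent in TRAJ58 than in the rest of TRA and 12 less (adjusted p under 0.05, exact sign-flip test over 10 libraries). TRAJ49 had 5 more frequent and 9 less, and TRAJ48 had 8 and 10. The 4 starts raised in TRAJ58 were CAAG, CGGK, CAMR and CAME. CAAG opened 13.6% ± 3.0 of TRAJ58 clonotypes, against 2.48% ± 0.104 in the rest, and CGGK opened 8.31% ± 2.94, against 0.858% ± 0.0945 (SD, n = 10 libraries). Both were higher in 10 of 10 libraries. CAMR opened 7.01% ± 1.45, against 4.57% ± 0.235, and CAME 3.94% ± 1.30, against 1.58% ± 0.203.

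CAAG is the start that germline TRAV19 encodes, from general knowledge, though other trimmed V segments can give it too; RefSeq places Trav19 on the J side of the V array, 309178 bases before the first Traj segment. No V segment is named here for CGGK. Each start was also more frequent in the other two genes than in the rest of TRA. CAAG opened 3.41% ± 0.715 of TRAJ49 clonotypes (against 2.52% ± 0.102) and 3.18% ± 0.333 of TRAJ48 clonotypes (against 2.53% ± 0.113). CGGK opened 2.25% ± 0.607 of TRAJ49 and 2.95% ± 0.908 of TRAJ48 clonotypes, against 0.855% ± 0.0966 and 0.852% ± 0.0902.

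The starts CAAG and CGGK broadly followed the order of the J segments. CAAG opened 13.6% of clonotypes of TRAJ58, 10.6% of TRAJ57, 10.8% of TRAJ56 and 6.54% of TRAJ53. Over the 10 genes at the V side it ran from 3.01% (TRAJ45) to 13.6%. The 21 genes further in than TRAJ45 had 0.733% to 3.16%, so the ranges overlapped at their edge. CGGK opened 2.25% to 8.31% in the 10 genes at the V side and 0% to 1.51% in those 21. Across the 31 genes, Spearman's rho of the mean percent with distance from the first segment was -0.85 for CAAG and -0.87 for CGGK; this is a description, since all genes share the same libraries. CAMR, also raised in TRAJ58, followed this order less, with a rho of -0.33. Its highest mean was 10.3% in TRAJ2, the tested gene furthest from the V side, against 7.01% in TRAJ58. CAME was not followed along the locus. Differences from the rest were again common, with 83.9% of TRAJ genes called for CAAG and 93.5% for CGGK.

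Other starts were nearly missing from TRAJ58. CAAS, the most frequent start of TRA clonotypes, opened 0.671% ± 0.688 of TRAJ58 clonotypes, against 12.5% ± 0.718 in the rest, and CAAE opened 0.855% ± 0.659, against 4.46% ± 0.360 (both lower in 10 of 10 libraries, adjusted p = 0.00555, exact sign-flip test). TRAJ52, a segment further in, was low too, with 1.57% CAAS and 0.332% CAAE, while its neighbours TRAJ53 and TRAJ50 had 12.1% and 6.94% CAAS. TRAJ32 had 3.72% CAAS and 0.0678% CAAE, and CAAE was also low in TRAJ42 (0.184%) and TRAJ2 (0.349%). Whether these gaps lie in the cells or in which alpha chains passed as beta chains was not tested. In TRAJ49 and TRAJ48 the start CALS was raised, with 14.7% ± 1.35 of TRAJ49 clonotypes (against 11.5% ± 0.333) and 14.3% ± 1.29 of TRAJ48 clonotypes (against 11.6% ± 0.345), in 10 of 10 libraries each.

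Between groups, CAAG opened 12.5% ± 1.96 of TRAJ58 clonotypes in CNS4KO libraries and 14.6% ± 3.69 in CNS4Flox libraries. CGGK opened 6.96% ± 3.40 in CNS4KO and 9.66% ± 1.84 in CNS4Flox libraries (SD over 5 each). Both ranges overlapped, and these group values were given no test.

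Clone sizes of TRAJ49 and TRAJ48 were larger in CNS4KO libraries. The mean count per clonotype of TRAJ49 was 3.14, 3.87, 2.74, 2.56 and 2.16 in CNS4KO replicates 1 to 5, against 1.80, 2.06, 2.07, 1.82 and 1.84 in CNS4Flox replicates 1 to 5. All CNS4KO libraries lay above all CNS4Flox libraries. The means were 2.89 ± 0.649 and 1.92 ± 0.138 (SD, n = 5 each), a log2 difference of 0.57 ± 0.16 (SE) with a limma adjusted p of 0.00320. With libraries thinned to the same TRA total the means were 2.62 ± 0.599 and 1.86 ± 0.144, the groups overlapped, and the log2 difference was 0.47 ± 0.14 (limma, adjusted p = 0.0122). In bulk RNA, more cells of a clone and more receptor RNA per cell cannot be told apart.

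TRAJ48 had 3.40, 3.35, 2.44, 3.07 and 2.09 counts per clonotype in CNS4KO replicates 1 to 5, against 1.62, 1.63, 1.99, 1.75 and 1.73 in CNS4Flox replicates 1 to 5. The groups did not overlap here either. The means were 2.87 ± 0.581 in CNS4KO and 1.74 ± 0.150 in CNS4Flox libraries, a log2 difference of 0.70 ± 0.16 with a limma adjusted p of 0.00134. After the same thinning the means were 2.64 ± 0.543 in CNS4KO and 1.69 ± 0.128 in CNS4Flox libraries, also with overlap, and the log2 difference was 0.62 ± 0.14 (limma, adjusted p = 0.00329). These are near the background: 28 of 31 TRAJ genes (90.3%) passed in this direction, 17 of 31 (54.8%) had groups that did not overlap, and all TRA clonotypes together averaged 3.13 ± 0.479 counts in CNS4KO and 2.12 ± 0.204 in CNS4Flox libraries.

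TRAJ58 was 1 of the 3 TRAJ genes that did not pass. Its clonotypes averaged 2.31, 1.79, 2.13, 2.0 and 1.93 counts in CNS4KO replicates 1 to 5, against 1.58, 1.53, 1.90, 1.84 and 1.99 in CNS4Flox replicates 1 to 5. CNS4Flox replicates 3, 4 and 5 lay within the CNS4KO range. The means were 2.03 ± 0.195 and 1.77 ± 0.202, a log2 difference of 0.20 ± 0.15 (limma, adjusted p = 0.182). Over 10 libraries TRAJ58 had the smallest clones of the 31 genes, with 1.90 ± 0.234 counts per clonotype, against 2.63 ± 0.641 in the rest of TRA, lower in 10 of 10 libraries (adjusted p = 0.00555, exact sign-flip test); 35.5% of the 31 genes were called in this comparison, 19.4% as lower.

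Divided by the mean over all TRA clonotypes of its library, TRAJ58 clone size was 0.656 ± 0.0748 in CNS4KO and 0.835 ± 0.0632 in CNS4Flox libraries. The per-library ratios were 0.592, 0.564, 0.681, 0.739 and 0.703 in CNS4KO replicates 1 to 5, against 0.853, 0.745, 0.799, 0.897 and 0.884 in CNS4Flox replicates 1 to 5. The groups did not overlap, which held for 1 of 31 genes (3.23%), yet the log2 difference of -0.35 ± 0.10 missed the threshold (limma, adjusted p = 0.0980). On this scale TRAJ49 had 0.926 ± 0.174 in CNS4KO and 0.911 ± 0.0755 in CNS4Flox libraries, and TRAJ48 had 0.920 ± 0.166 and 0.826 ± 0.0446, with adjusted p-values of 0.959 and 0.712 (limma).

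**Figure D3:**
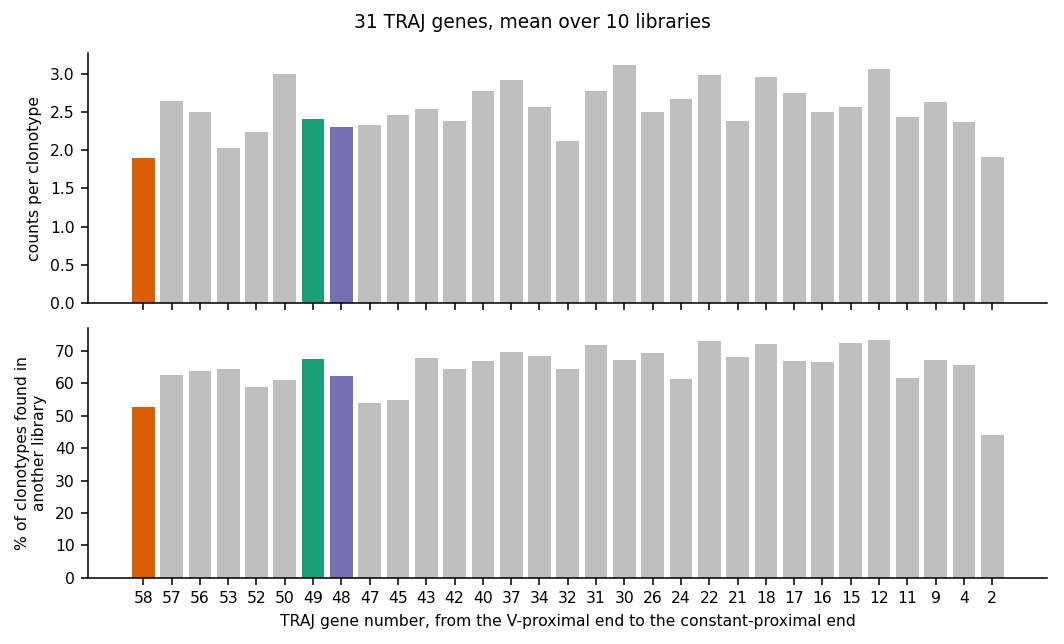
Mean counts per clonotype (upper panel) and percent of amino acid clonotypes found in at least 1 other library (lower panel) of the 31 tested TRAJ genes in locus order, means over 10 libraries, with TRAJ58, TRAJ49 and TRAJ48 in colour. TRAJ58, at the left end, has the lowest clone size (1.90 counts) and 52.8% shared clonotypes, against 67.6% for TRAJ49 and 62.2% for TRAJ48.

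Clonotypes with a count of 1 made up a smaller part of TRAJ58 and TRAJ49 in CNS4KO libraries. They made up 59.5% ± 5.32 of TRAJ58 clonotypes in CNS4KO and 71.8% ± 4.74 in CNS4Flox libraries, and 58.2% ± 2.21 and 65.4% ± 1.77 of TRAJ49 clonotypes; neither pair of groups overlapped, as for 48.4% of TRAJ genes. For TRAJ48 they made up 63.4% ± 4.10 in CNS4KO and 68.5% ± 2.61 in CNS4Flox libraries, with overlap (SD, n = 5 each). No test was run on these shares between groups.

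Large clones stood out in 3 of the 5 CNS4KO libraries for TRAJ48. Its largest clonotype held 522, 361, 37, 201 and 32 counts in CNS4KO replicates 1 to 5, against 24, 26, 25, 14 and 30 in CNS4Flox replicates 1 to 5. By raw count every CNS4KO library lay above every CNS4Flox library, as for 6.45% of TRAJ genes. As a share of TRAJ48 counts the largest clonotype took 31.9%, 27.7%, 3.85%, 17.4% and 2.63% in CNS4KO libraries, against 2.49%, 2.89%, 2.12%, 1.49% and 2.74% in CNS4Flox libraries, and the groups overlapped, CNS4KO replicate 5 being inside the CNS4Flox range. The 10 largest clonotypes took 42.3%, 52.8%, 23.5%, 42.9% and 16.7% of TRAJ48 counts in CNS4KO libraries, against 12.7%, 12.6%, 14.6%, 11.7% and 12.7% in CNS4Flox libraries, with no overlap (9.68% of TRAJ genes). For TRAJ49 the largest clonotype held 191, 327, 80, 110 and 57 counts in CNS4KO libraries, against 93, 78, 47, 28 and 23 in CNS4Flox libraries, and the groups overlapped. For TRAJ58 it held only 14 to 27 counts in CNS4KO and 13 to 31 in CNS4Flox libraries.

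Mean clone size was also compared without the largest clones. With the largest clonotype of each gene and library left out, TRAJ49 averaged 2.65 ± 0.470 counts per clonotype in CNS4KO and 1.86 ± 0.132 in CNS4Flox libraries, and TRAJ48 2.34 ± 0.189 and 1.71 ± 0.151 (SD, n = 5 each). Neither pair of groups overlapped, and both stayed past the threshold in limma (adjusted p = 0.000301 and 0.000544), as did 96.8% of TRAJ genes. This setting was chosen after the values were seen.

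Richness at equal counts was lower in CNS4KO libraries. Each gene was brought to its smallest library total by the rarefied expectation, 210 counts for TRAJ58, 1431 for TRAJ49 and 899 for TRAJ48. TRAJ49 gave 545, 438, 554, 563 and 719 distinct clonotypes in CNS4KO replicates 1 to 5, against 834, 725, 722, 787 and 806 in CNS4Flox replicates 1 to 5. CNS4KO replicate 5 lay close under the lowest CNS4Flox library, and the groups did not overlap, as for 15 of 31 TRAJ genes (48.4%) on this measure. The log2 difference was -0.47 ± 0.11 (limma, adjusted p = 0.000953).

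TRAJ48 gave 330, 299, 377, 320 and 480 distinct clonotypes in CNS4KO libraries, against 564, 553, 492, 523 and 551 in CNS4Flox libraries, again with no overlap and with CNS4KO replicate 5 nearest. The log2 difference was -0.59 ± 0.12 (limma, adjusted p = 0.000187). TRAJ58 gave 99.95, 117, 99.5, 108 and 117 in CNS4KO libraries, against 138, 139, 116, 117 and 122 in CNS4Flox libraries, and the groups met at 116 to 117. Its log2 difference of -0.23 ± 0.10 passed narrowly (limma, adjusted p = 0.0374). Leaving out any of 6 single libraries (CNS4KO replicates 1, 3 and 4, CNS4Flox replicates 1, 2 and 5) ended that call, with adjusted p-values of 0.0513 to 0.117. With each library thinned to the same TRA total in place of the same total of the gene, TRAJ58 had 99.1 ± 12.5 distinct clonotypes in CNS4KO and 135 ± 11.9 in CNS4Flox libraries, a log2 difference of -0.45 ± 0.10 (limma, adjusted p = 1.16e-05); this count also follows the share of TRAJ58 in TRA. All 31 TRAJ genes (100%) were called lower.

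**Figure D4:**
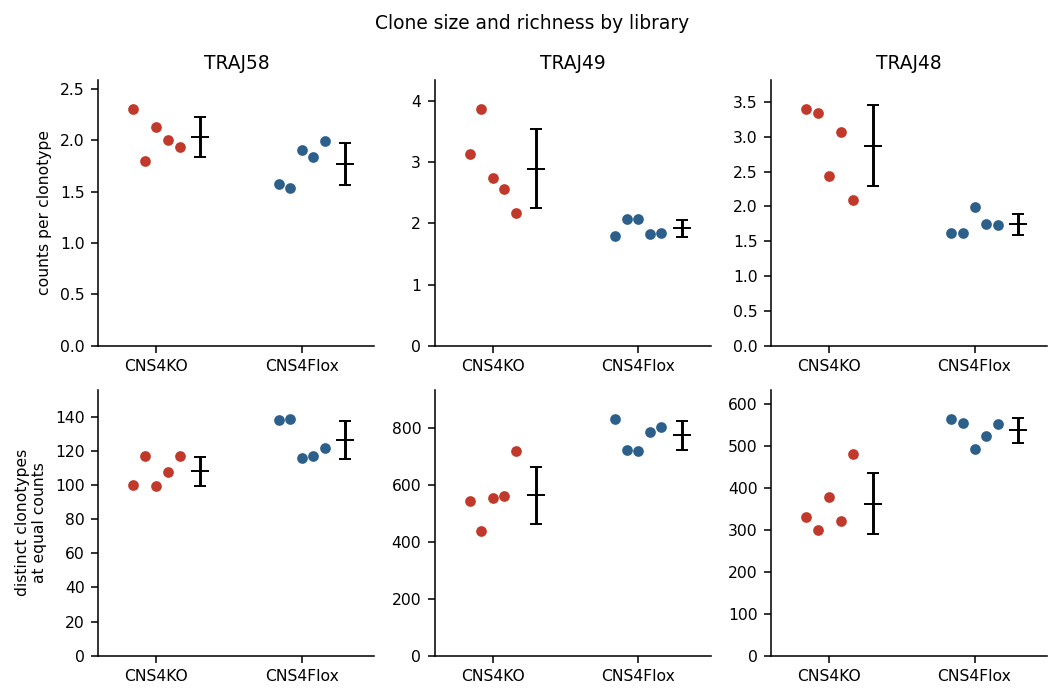
Mean counts per clonotype (upper row) and distinct clonotypes at equal counts (lower row) of TRAJ58, TRAJ49 and TRAJ48; each point is 1 library, and the bars give the mean and SD of 5. For TRAJ49 and TRAJ48 the CNS4KO points lie above the CNS4Flox points in clone size (2.89 against 1.92 and 2.87 against 1.74 on average) and below them in richness.

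Sharing between libraries was counted on amino acid clonotypes. TRAJ58 had 790 of them, of which 573 (72.5%) were in 1 library, 27 in at least 5 and 1 in all 10. TRAJ49 had 2951, with 1917 (65.0%) in 1 library, 299 in at least 5 and 37 in all 10, and TRAJ48 had 2412, with 1640 (68.0%) in 1 library, 174 in at least 5 and 11 in all 10. The clonotypes found in at least 5 libraries took 17.6% of TRAJ58 counts, 50.8% of TRAJ49 counts and 41.0% of TRAJ48 counts. Without CNS4KO replicate 5 and CNS4Flox replicate 3, the clonotypes in all of the 8 other libraries numbered 1 for TRAJ58, 44 for TRAJ49 and 14 for TRAJ48.

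**Figure D5:**
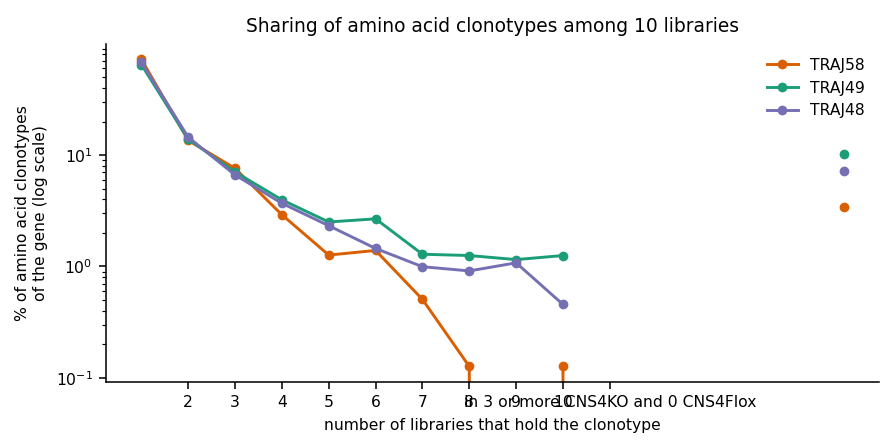
Number of libraries that hold an amino acid clonotype (x axis) against the percent of the clonotypes of the gene (y axis, log scale) for TRAJ58, TRAJ49 and TRAJ48. The TRAJ58 line falls fastest, with 0.127% of its clonotypes in all 10 libraries and none in 9, against 1.25% in all 10 for TRAJ49.

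TRAJ58 clonotypes were shared least of the 3 genes. In a given library, 52.8% ± 4.66 of them were found in at least 1 other, against 67.1% ± 1.39 for the rest of TRA, and 62.2% ± 2.97 of TRAJ48 clonotypes were, against 67.1% ± 1.41 (SD, n = 10; both lower in 10 of 10 libraries, adjusted p = 0.00555, exact sign-flip test). TRAJ49, with 67.6% ± 2.34 against 66.9% ± 1.39, did not pass (adjusted p = 0.376, exact sign-flip test). Of the 31 TRAJ genes 71% were called in this comparison, 45.2% as lower. Each sharing value is counted against the other libraries, so the 10 values are not independent, which the sign-flip test does not allow for. TRAJ58 was also coded by fewer nucleotide sequences per amino acid clonotype, 1.06 ± 0.0178 against 1.27 ± 0.0335, and TRAJ48 by 1.17 ± 0.0343 against 1.27 ± 0.0333. This was common too: 90.3% of the 31 TRAJ genes were called on this measure (exact sign-flip test), 54.8% as lower. Without CNS4KO replicate 5 and CNS4Flox replicate 3, TRAJ58 kept its direction against the rest of TRA in 8 of 8 libraries for sharing (51.7% against 66.8%), for clone size (1.90 against 2.64 counts) and for length (14.37 against 13.58 residues). The starts CAAG (12.6% against 2.47%) and CGGK (7.92% against 0.827%) did so too. For sharing, the 8 libraries were still compared with all 10. A clonotype shared only with the pair left out therefore still counted as shared, and the influence of the pair on sharing was not removed.

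Clonotypes in many libraries were shorter on average and had fewer bases outside the J end, given here as a description with no test. TRAJ49 clonotypes in at least 5 libraries averaged 13.22 ± 0.997 residues and 14.7 ± 2.67 bases outside the J end, and were written in 4.95 ± 2.85 nucleotide sequences (SD over 299 clonotypes). Those in 1 library averaged 13.83 ± 1.31 residues and 17.1 ± 3.29 such bases, in 1.02 ± 0.126 sequences (SD over 1917). The sequences were counted over all libraries that held the clonotype. A clonotype chosen for being in many libraries thus had more chances to show several, and no conclusion is drawn from that difference. For TRAJ48 the bases outside the J end were 14.3 ± 2.60 in 174 shared clonotypes and 16.8 ± 3.15 in those of 1 library, and for TRAJ58 they were 13.8 ± 3.17 in 27 and 16.1 ± 3.74.

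The share of clonotypes found in any other library passed the test between the groups for none of the 3 genes. For TRAJ58 it was 51.4% ± 6.14 in CNS4KO and 54.3% ± 2.42 in CNS4Flox libraries, for TRAJ49 67.7% ± 3.16 and 67.5% ± 1.52, and for TRAJ48 62.4% ± 3.19 and 62.0% ± 3.09 (SD, n = 5 each). The limma adjusted p-values were 0.820, 0.913 and 0.897, and 0 of 31 genes (0%) passed in limma or the exact permutation test, with 1 at an unadjusted p under 0.05 in limma. Here too the values of the libraries depend on each other, which these tests do not allow for.

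Counted only against the other 4 libraries of the same group, sharing of TRAJ58 was lower in CNS4KO libraries. It was 29.6%, 33.6%, 37.2%, 32.4% and 34.9% in CNS4KO replicates 1 to 5, against 40.1%, 43.1%, 39.7%, 45% and 37.9% in CNS4Flox replicates 1 to 5, with no overlap. The difference was -7.60 ± 1.86 percentage points (SE), with a limma adjusted p of 0.00181. A clonotype shared within a group raises the values of several of its libraries at once. The 5 values of a group are therefore not independent, which the test does not allow for. For TRAJ48 the values were 46.5% ± 2.01 in CNS4KO and 50.9% ± 2.19 in CNS4Flox libraries, and for TRAJ49 54.3% ± 2.58 and 57.9% ± 1.82, with adjusted p-values of 0.0736 and 0.143 (limma). The groups did not overlap for TRAJ58 and TRAJ48, as for 9.68% of TRAJ genes, and 4 of 31 (12.9%) passed, all lower. The CNS4KO libraries held fewer TRAJ58 amino acid clonotypes to share, 109 ± 11.5 a library against 136 ± 14.9 in CNS4Flox libraries. The part this plays in the difference was not tested.

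Clonotypes restricted to 1 group were few. In at least 3 CNS4KO libraries and no CNS4Flox library there were 4 TRAJ58, 5 TRAJ49 and 9 TRAJ48 clonotypes, and in at least 3 CNS4Flox libraries and no CNS4KO library 11, 42 and 22. Clonotypes in all 5 CNS4KO libraries numbered 2, 56 and 29 for the 3 genes, and those in all 5 CNS4Flox libraries 3, 91 and 51. CNS4KO libraries held fewer distinct amino acid clonotypes of each gene. The means were 109 against 136 for TRAJ58, 534 against 648 for TRAJ49 and 386 against 484 for TRAJ48. The part this plays in these numbers was not tested, and the same numbers over all TRA are not given here.

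For each gene, 3 widely shared clonotypes are shown as examples, those of highest mean share among the clonotypes in the most libraries. A clonotype here is 1 amino acid CDR3, given a letter. Its most counted nucleotide sequence (1 of 2 tied ones for TRAJ58 clonotype c and TRAJ48 clonotype e) is printed. Capitals mark the bases that match the consensus J end. Lower case holds the bases of V, added bases and any J bases in front of the consensus end.
TRAJ58 clonotype a: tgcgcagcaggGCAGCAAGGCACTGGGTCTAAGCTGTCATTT
TRAJ58 clonotype b: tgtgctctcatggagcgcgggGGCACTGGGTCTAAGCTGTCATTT
TRAJ58 clonotype c: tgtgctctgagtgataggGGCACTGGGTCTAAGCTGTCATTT
TRAJ49 clonotype a: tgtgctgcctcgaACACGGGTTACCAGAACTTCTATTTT
TRAJ49 clonotype b: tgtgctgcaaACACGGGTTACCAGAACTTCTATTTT
TRAJ49 clonotype c: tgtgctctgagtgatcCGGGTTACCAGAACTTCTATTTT
TRAJ48 clonotype a: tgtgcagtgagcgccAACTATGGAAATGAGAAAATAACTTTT
TRAJ48 clonotype b: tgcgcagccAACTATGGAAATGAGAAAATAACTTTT
TRAJ48 clonotype e: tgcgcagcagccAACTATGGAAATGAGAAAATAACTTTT

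TRAJ58 clonotype a was the only TRAJ58 clonotype in all 10 libraries. It had 2, 2, 9, 2 and 1 counts in CNS4KO replicates 1 to 5, against 8, 5, 1, 11 and 18 in CNS4Flox replicates 1 to 5, and the groups overlapped (edgeR log2 fold change -1.53 ± 0.94, adjusted p = 0.684). Its 59 counts came from 5 nucleotide sequences, and the printed one, with 39 counts, joins the CAAG start to the complete consensus end. TRAJ58 clonotype b, in 8 libraries, and TRAJ58 clonotype c, in 7, followed.

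Among TRAJ49 clonotypes in all 10 libraries, the printed sequences of TRAJ49 clonotype a and TRAJ49 clonotype b carried the complete consensus J end. TRAJ49 clonotype a had 20, 6, 21, 27 and 56 counts in CNS4KO libraries, against 11, 23, 34, 14 and 17 in CNS4Flox libraries, from 19 nucleotide sequences. TRAJ49 clonotype b had 10, 19, 23, 8 and 30, against 15, 7, 25, 8 and 9, from 14. Their edgeR log2 fold changes were 0.19 ± 0.83 and 0.29 ± 0.83 (SE), with adjusted p-values of 0.970 and 0.947. Errors of this size leave large changes of a single clonotype undetectable, so a clonotype that missed the threshold is not shown to be unchanged.

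TRAJ49 clonotype c was also in all 10 libraries, but 191 of its 207 counts were 1 nucleotide sequence in CNS4KO replicate 1. The other 9 libraries held 1 to 3 counts each. TRAJ48 was led by TRAJ48 clonotype a, with 4, 9, 2, 38 and 4 counts in CNS4KO libraries, against 13, 8, 21, 8 and 34 in CNS4Flox libraries, and by TRAJ48 clonotype b, with 6, 3, 3, 29 and 11, against 9, 3, 39, 4 and 5. Both ranges overlapped widely, and the edgeR log2 fold changes were -0.50 ± 0.87 and -0.24 ± 0.88 (adjusted p = 0.906 and 0.966). TRAJ48 clonotype e had 14, 1, 6, 1 and 14 counts in CNS4KO libraries, against 11, 9, 6, 5 and 11 in CNS4Flox libraries, from 14 nucleotide sequences (edgeR adjusted p = 0.902).

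Some of the largest clones are already printed above. TRAJ49 clonotype c was the largest TRAJ49 clone of CNS4KO replicate 1. TRAJ48 clonotype b was the TRAJ48 clonotype of largest share in a CNS4Flox library. Large clones with other junctions follow. They are shown because they decide the top of the clone size values, with the same use of capitals.
TRAJ48 clonotype c: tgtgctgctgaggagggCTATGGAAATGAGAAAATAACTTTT
TRAJ48 clonotype d: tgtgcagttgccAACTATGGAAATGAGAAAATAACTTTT
TRAJ48 clonotype d, second sequence: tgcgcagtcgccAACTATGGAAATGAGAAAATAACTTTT
TRAJ49 clonotype d: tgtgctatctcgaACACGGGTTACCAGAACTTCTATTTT
TRAJ49 clonotype f: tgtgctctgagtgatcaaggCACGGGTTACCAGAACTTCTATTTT
TRAJ49 clonotype e: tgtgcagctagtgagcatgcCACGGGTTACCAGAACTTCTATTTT
TRAJ58 clonotype d: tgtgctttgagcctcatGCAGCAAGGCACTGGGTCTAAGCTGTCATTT
TRAJ58 clonotype e: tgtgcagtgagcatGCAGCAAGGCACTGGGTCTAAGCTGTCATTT

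TRAJ48 clonotype c was 1 sequence found in CNS4KO replicate 1 alone, with 522 counts, 31.9% of the TRAJ48 counts and 0.766% of the TRA counts of that library. TRAJ49 clonotype d held 327 counts in CNS4KO replicate 2, with 7 further counts, under another nucleotide sequence, in CNS4Flox replicate 5. The largest TRAJ49 clone of a CNS4Flox library was TRAJ49 clonotype e, with 93 counts in replicate 1 and none elsewhere. The largest TRAJ58 clone in a CNS4KO library, TRAJ58 clonotype d, had 27 counts in replicate 5, and TRAJ58 clonotype e had 26 counts each in CNS4Flox replicates 1 and 4, written by the same nucleotide sequence in all 6 libraries that held it. By count alone another TRAJ58 clonotype was larger, with 31 in CNS4Flox replicate 5, but it lies outside the rule by which clonotypes were chosen and was picked after its value was seen.

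Of the amino acid clonotypes detected in at least 5 libraries, 500 belonged to the 3 genes and 7176 to all TRA. In edgeR's quasi-likelihood test 2 of the 500 passed, both higher in CNS4KO, beside 9 of 7176 (0.125%) in all, of which 0.0697% were higher and 0.0557% lower, and 45 of the 500 had an unadjusted p under 0.05, beside 620 of 7176. DESeq2 called 0 of the 500. TRAJ48 clonotype d, called higher, had 2, 361, 1, 215 and 3 counts in CNS4KO replicates 1 to 5, against 1, 3, 0, 2 and 10 in CNS4Flox replicates 1 to 5. Replicates 2 and 4 alone were high, each with its own nucleotide sequence: the first shown above held 363 counts in 3 libraries, and the second 201 counts in CNS4KO replicate 4 only. Its log2 fold change was 5.13 ± 1.17 (edgeR, adjusted p = 0.0433), and leaving out CNS4KO replicate 2 or any of CNS4Flox replicates 1 to 4 ended the call, with adjusted p-values of 0.0518 to 0.0961.

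TRAJ49 clonotype f, the other call, had 1, 220, 1, 0 and 1 counts in CNS4KO libraries, against 0, 1, 1, 0 and 0 in CNS4Flox libraries. All but 5 of its 225 counts lay in CNS4KO replicate 2, in 1 nucleotide sequence. Its log2 fold change of 6.25 ± 1.34 (edgeR, adjusted p = 0.0281) fell to 0.52, with an adjusted p of 0.926, without that library. No TRAJ58 clonotype passed: 27 were tested, and TRAJ58 clonotype e had a log2 fold change of -4.27 ± 1.15 with an adjusted p of 0.106 (edgeR).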

How the data were processed

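Each library's deposited clonotype table gives a count per CDR3 nucleotide sequence, and the authors' deposited fraction column is that count over the library total, per the file headers and the values. Whether counts are reads or molecules, and which aligner and caller made them, is not given in the sources used here; the submitters' processing notes name mm10. Per the labels' protocols, total RNA was reverse transcribed with primers for both chains and a template switch adapter.

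TRAJ58, TRAJ49 and TRAJ48 were taken by CDR3 end, ignoring listed V and J names; J ends of other genes come from general knowledge. Members and lists were chosen with earlier results of these data known. Shares of counts and of distinct clonotypes were tested with edgeR 4.0.16 (quasi-likelihood, TRA total as library size), other measures with limma 3.58.1, over the 31 TRAJ genes reaching 10 counts in 5 or more libraries, and Benjamini-Hochberg adjustment at 0.05. DESeq2 1.42.0 and exact permutation tests (252 assignments, smallest p 0.00794) were alternatives. Scripts were tested on simulated data. Clonotypes named are, per gene, the 3 of highest mean share among the most shared, the largest by share of TRA in each group, and those past the threshold. Positions are RefSeq's, GRCm38.p6.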

Additional observations from a re-analysis of the deposited data

How the results depend on the processing

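No paired analysis was possible because the labels give no replicate numbers: the numbers used here only name libraries. Over all results and alternatives, 354 of 421 values kept their direction and side of the threshold, or stayed within 1.5 times for counts. Log2 fold changes turned for the TRAJ58 share of distinct clonotypes with clonotypes of count 1 left out (0.24), with libraries thinned to 40063 TRA counts (0.013) and without both CNS4KO replicate 5 and CNS4Flox replicate 3 (0.00036), for that of TRAJ49 without count 1 (0.00013), and for the TRAJ48 share of counts without the largest clonotypes (-0.083); none of these passed the threshold. Relative to the library's TRA mean, clone size gave -0.35 for TRAJ58, 0.0096 for TRAJ49 and 0.14 for TRAJ48, and 0 TRAJ genes passed. Against the same group only, sharing gave -7.60 for TRAJ58, -3.65 for TRAJ49 and -4.39 for TRAJ48 percentage points, and 4 genes passed.

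The 1 TRAJ gene called by distinct clonotypes became 0 with TMM, DESeq2, thinning, amino acid clonotypes, the exact permutation test or without both named libraries, and 2 with no filter. By counts, 1 gene passed without the largest clonotypes. Of single clonotypes, TMM called 1, DESeq2 0 (it gave no adjusted p for TRAJ49 clonotype f) and detection in at least 3 libraries 4; TRAJ48 clonotype d had adjusted p-values of 0.0625 with TMM and 0.0998 with DESeq2. The causes were not tested.

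Leaving out 1 library at a time gave log2 ranges of -0.091 to 0.047 (TRAJ49) for the share of counts and of -0.041 to 0.023 (TRAJ58) and -0.024 to 0.0080 (TRAJ49) for distinct clonotypes. It gave -0.011 to 0.030 residues for TRAJ48 length, -1.07 to 1.14 points for TRAJ49 sharing, -0.26 to -0.19 for TRAJ58 at equal counts (-0.29 without both named libraries, -0.45 thinned to equal TRA counts), 0 to 1 genes by distinct clonotypes, 0 to 1 by length and 0 to 3 single clonotypes. TRAJ49 clonotype f ranged over 0.52 to 6.79 and TRAJ48 clonotype d over 4.23 to 6.04.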
